A study of Homo sapiens with 8 samples.

Results

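FBP1 and GATA2 are 2 of the 9245 messenger RNA entries compared between SK-BR-3 cells with and without the microRNAs mir-141 and mir-200c. They were chosen because both had much lower ratios to wild type in the clones of the first experimental set, so their ratios in that set are given as a description, without a test. The cells, SK-BR-3, are an established line from a human breast cancer in which ERBB2 is amplified. The 8 libraries formed 4 groups: wild-type cells and cells in which mir-141, mir-200c or both had been knocked out. Each group had 1 library in each of 2 sets. In set 1 the mir-141 knockout was clone 23, the mir-200c knockout clone 11 and the double knockout clone 55, and in set 2 they were clones 10, 29 and 61. The knockouts were made with TALENs, engineered nucleases directed to a chosen site in the genome. Each knockout library is thus 1 clone grown from the edited line, and a change made by the loss of a microRNA and a trait of the clone cannot be told apart within a set. The deposited values are log2 ratios, each clone against the wild-type library in its own set. A ratio of −1 means a 2-fold lower level than in wild type. The depth of the libraries is unknown because ratios carry no counts.

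FBP1 encodes fructose bisphosphatase, which removes a phosphate from fructose bisphosphate. This step runs against the glycolytic enzyme phosphofructokinase and is a control point of gluconeogenesis, the making of glucose from smaller molecules. In breast cancer FBP1 is known as an enzyme of luminal cells that is silenced in basal-like cells, where repression by the transcription factor SNAI1 has been described. GATA2 encodes a zinc finger transcription factor that binds GATA motifs and is best known for its need in blood stem cells and mast cells. In the mammary epithelium the related GATA3 is the main luminal factor. The mir-200 family is known for holding back the repressors ZEB1 and ZEB2 and thereby keeping epithelial cells epithelial.

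The mature microRNAs are shown because their seeds, bases 2 to 8 in capitals, set which messages they pair with. The sequences are from RefSeq (GRCh38.p14), and both lie on the plus strand of chromosome 12, at chr12:6964155-6964176 and chr12:6963742-6963764.
hsa-miR-141-3p: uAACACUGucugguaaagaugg
hsa-miR-200c-3p: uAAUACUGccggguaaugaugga
The seeds differ at 1 base. The annotated 3′ UTR of FBP1 (NM_000507, 248 bases) held 0 matches to either seed, searched on the transcript strand as CAGTGTT for miR-141-3p and CAGTATT for miR-200c-3p. The 3′ UTR of GATA2 (NM_032638, 1592 bases) held 0 matches to CAGTGTT and 1 to CAGTATT, 1425 bases after the stop codon at chr3:128479578-128479604 on the minus strand of GRCh38. That match is shown with the seed match in capitals.
GATA2 match: aaagaatcggCAGTATTttctgttttt
A match is a run of letters and was not tested as a site.

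The windows before the start sites of both genes are shown because both genes stood low together, with each CpG in capitals. They are the 250 bases upstream of a RefSeq start on GRCh38.p14, minus strand, FBP1 at chr9:94639519-94639768 and the distal start of GATA2 at chr3:128493202-128493451. The FBP1 window lies inside the span of the gene in the GENCODE annotation, which ends at 94640249. A start further upstream is thus annotated there, and the window before it was not examined.
FBP1 promoter: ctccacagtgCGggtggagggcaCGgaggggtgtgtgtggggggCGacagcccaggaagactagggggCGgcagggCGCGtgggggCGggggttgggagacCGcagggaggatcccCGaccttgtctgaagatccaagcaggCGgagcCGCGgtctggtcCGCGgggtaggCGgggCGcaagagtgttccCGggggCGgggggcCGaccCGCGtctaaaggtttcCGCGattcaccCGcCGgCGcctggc
GATA2 promoter: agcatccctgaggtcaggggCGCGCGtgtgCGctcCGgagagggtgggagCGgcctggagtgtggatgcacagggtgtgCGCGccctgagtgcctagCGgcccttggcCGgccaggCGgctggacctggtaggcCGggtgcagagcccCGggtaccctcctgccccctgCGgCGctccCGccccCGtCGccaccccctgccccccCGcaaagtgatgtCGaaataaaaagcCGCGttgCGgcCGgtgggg
The FBP1 window held 26 CpG and the GATA2 window 24, against a median of 11 over 35116 promoter windows of this length. Of all windows, 80.4% held fewer CpG than FBP1 and 76.3% fewer than GATA2. Methylation was not measured. Searched on both strands, CACCTG, an E-box of the kind SNAI1 and ZEB factors bind, was found in neither window and in 17.5% of all windows. The wider E-box CANNTG, which includes CACCTG, was found in neither and in 61.8% of all windows. The motif GATAAG, of the kind that zinc finger factors like GATA2 bind, was found in neither and in 5.65% of all windows. Another RefSeq start of GATA2, whose window at chr3:128488531-128488780 is not shown, had 18 CpG, 1 CACCTG, 3 CANNTG and 0 GATAAG.

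FBP1 (GRCh38 chromosome 9, 94603133 to 94640249, minus strand) was the lowest gene of all 9245 in each of the 3 clones of set 1. Its log2 ratio was −6.08 in the mir-141 knockout, −7.01 with mir-200c knocked out and −8.51 in the double knockout. These ratios put it 67.8-fold, 129-fold and 365-fold below wild type, or at 1.47%, 0.775% and 0.274% of its level. Their mean was −7.20 ± 1.23 (SD, n = 3 clones). All 3 clones were far below wild type, and the double knockout was the lowest. A constant added before the ratio was taken would set the size of such low values, and whether one was used is not stated.

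GATA2 (chromosome 3, 128479427 to 128493185, minus strand) had log2 ratios of −2.64 in the mir-141 knockout, −4.09 with mir-200c knocked out and −3.28 in the double knockout. It stood 6.24-fold, 17.1-fold and 9.69-fold below wild type, with a mean ratio of −3.34 ± 0.73 (SD, n = 3 clones). It ranked 6, 3 and 4 from the lowest gene of these columns. All 3 clones were low, and here the mir-200c knockout, not the double knockout, was the lowest. Both genes were below −1 in all 3 clones, where 0.562%, 1.06% and 0.746% of all genes were below −1 for the mir-141, mir-200c and double knockouts of set 1. The shares are printed beside genes chosen on these columns and nothing is read from them.

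**Figure D1:**
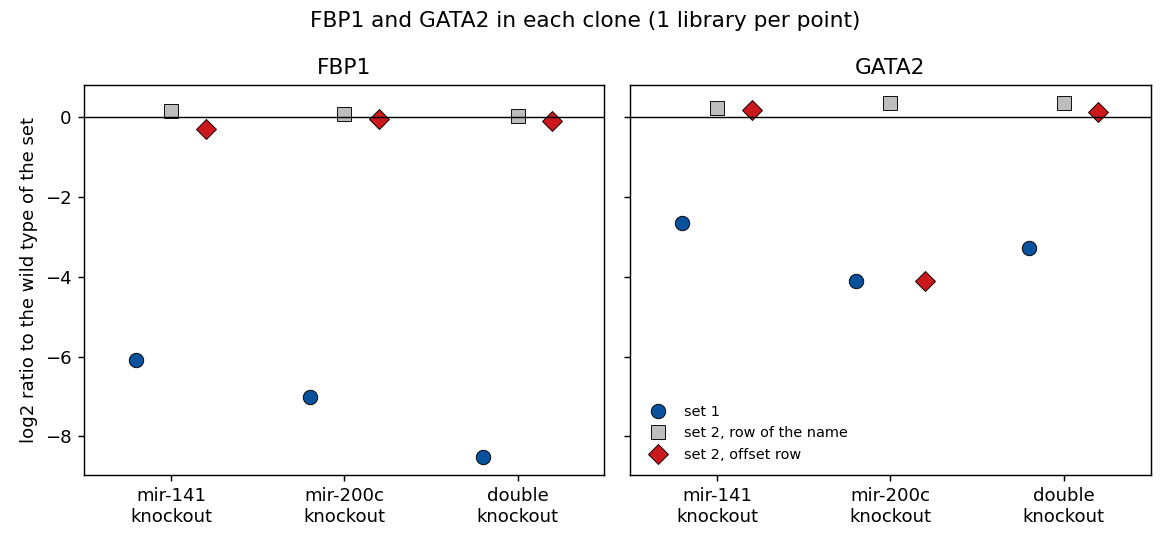
Log2 ratio to the wild type of the set (y axis) for FBP1 and GATA2 in each genotype (x axis), 1 library per point. Circles are set 1, squares set 2 on the row that carries the gene's name, and diamonds set 2 on the row found from the row offset described below; the circles lie between −2.64 and −8.51, while all squares lie above 0 and 1 diamond, GATA2 in the mir-200c knockout, lies at −4.10.

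The 3 ratios of a gene in set 1 share 1 wild-type library. A high level in that library alone and a low level in all 3 clones therefore cannot be told apart. Fewer cells expressing a gene and less RNA per cell cannot be told apart either in bulk libraries. Differences between clones do not depend on the wild type. FBP1 was 5.38-fold lower in the double knockout than in the mir-141 knockout (difference of log2 ratios −2.43), which ranked 3 from the lowest such difference of all genes. It was 2.83-fold lower in the double than in the mir-200c knockout (rank 22). It was 1.90-fold lower in the mir-200c than in the mir-141 knockout (−0.93, rank 102). These FBP1 differences compare levels of 1.47%, 0.775% and 0.274% of wild type (mir-141, mir-200c and double knockout) in libraries of unknown depth. A few reads or an added constant could set their size. Their ranks come from a gene chosen on these same ratios, so nothing is read from them. GATA2 was 2.74-fold lower in the mir-200c than in the mir-141 knockout (−1.45, rank 26). It was 1.55-fold lower in the double than in the mir-141 knockout (−0.63) and 1.76-fold higher in the double than in the mir-200c knockout (0.82). The order of the genotypes thus differed between the genes. With 1 clone per genotype in the set, neither order could be tested against the spread between clones.

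Ranked by the highest of their 3 ratios in set 1, FBP1 came first (−6.08) and GATA2 next (−2.64). Of all genes, 19 were below −1 in all 3 clones (0.206%). Just behind the members were MUC5B, a gel-forming mucin, at −2.19, −1.98 and −3.71, and APOD, a lipid carrier, at −1.67, −1.89 and −1.70 (mir-141, mir-200c and double knockout). Genes with ratios most like those of FBP1, by Euclidean distance over the 3 ratios of set 1, were GATA2 (6.91), MUC5B (7.97), NSMAF (8.15), BASP1 (9.04) and SPDYC (9.18). For GATA2 they were MUC5B (2.21), TNFRSF18 (2.41), DTD2 (2.41), ORM2 (2.72) and BASP1 (2.73). The distances use the ratios on which the members were chosen and are a description.

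**Figure D2:**
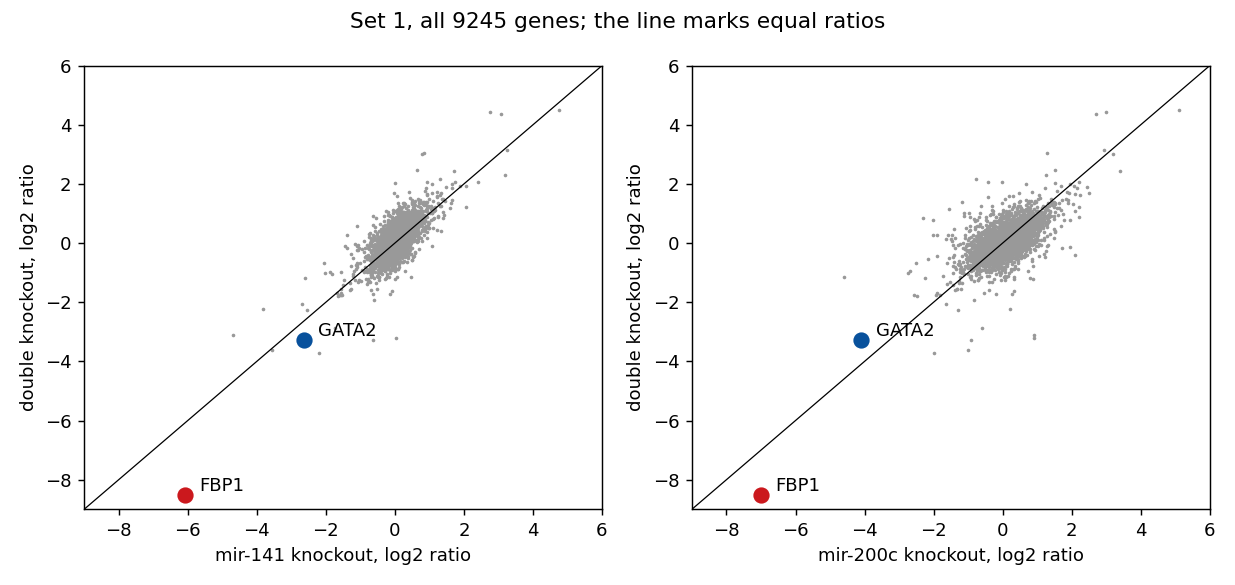
Log2 ratios of all 9245 genes in set 1, the double knockout (y axis) against the mir-141 knockout (left x axis) and the mir-200c knockout (right x axis), 1 point per gene, with the line of equal ratios. FBP1 lies apart from all other genes at −8.51 in the double knockout, and GATA2 lies below the line on the left and above it on the right.

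Set 2 was not used to choose the genes. The test within it takes the 3 knockout genotypes as 1 group. A change in 1 genotype only thus adds to the spread against which it is judged. On the row that carries its name, FBP1 was listed at 0.15 (mir-141 knockout, clone 10), 0.094 (mir-200c knockout, clone 29) and 0.037 (double knockout, clone 61), with a mean of 0.10 ± 0.06 (SD, n = 3 clones). GATA2 was listed at 0.24, 0.35 and 0.37, with a mean of 0.32 ± 0.07 (SD, n = 3 clones). All 6 values were slightly above wild type, and none was below −1, where 0.963%, 0.8% and 0.919% of all genes were in these 3 columns. In limma across all genes, with the 3 clones of set 2 against their lone wild type, FBP1 differed by 0.10 ± 0.14 (SE; adjusted p = 0.836) and GATA2 by 0.32 ± 0.14 (SE; adjusted p = 0.613). That fit called 0 of 9245 genes, with 751 at an unadjusted p under 0.05, and it assumes that the wild type varies like the clones.

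These listed values may not belong to the names beside them. Over all rows the ratios of the sets were unrelated as listed (mean Pearson correlation 0.00488 over 9 pairs of columns). They were related when set 2 was read a few rows away, at an offset that drifted along the table from −18 to 17 rows. The offset of each row was estimated from the rows around it with a hidden Markov model, leaving out the row itself, and 5431 rows (58.7%) had an offset with a probability of 0.9 or more. Only 2.56% of those had an offset of 0. On these rows the correlation between sets was 0.173 for the mir-141 knockouts, 0.439 for the mir-200c knockouts and 0.454 for the double knockouts. Offsets were chosen for such likeness, so these correlations describe the reading and do not test it. The mir-141 knockout of set 1 was more like the double knockout of set 2 (0.310) than like the mir-141 knockout of set 2. What made the offset was not tested.

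For FBP1 the most probable offset was 3 rows (probability 0.995), on a row that carries the name SCFD2. Read there, FBP1 had −0.30 in the mir-141 knockout, −0.033 with mir-200c knocked out and −0.084 in the double knockout of set 2. For GATA2 the most probable offset was 6 rows (probability 0.996), on a row that carries the name SLC26A11. Read there, GATA2 had 0.17 in the mir-141 knockout, −4.10 with mir-200c knocked out and 0.12 in the double knockout. On the offset reading FBP1 was thus near wild type in every clone of set 2, and GATA2 was low in the mir-200c knockout only. As listed, GATA2 was at 0.24, 0.35 and 0.37 in the same clones. Its low value thus depends on a row chosen after seeing the data. The low value, clone 29 at −4.10, lies next to the −4.09 of clone 11 in set 1, and the lowest value of its column was −8.25. Without the mir-200c clone the mean of GATA2 at that row was 0.15, so its mean of −1.27 ± 2.45 (SD, n = 3 clones) rests on 1 library.

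**Figure D3:**
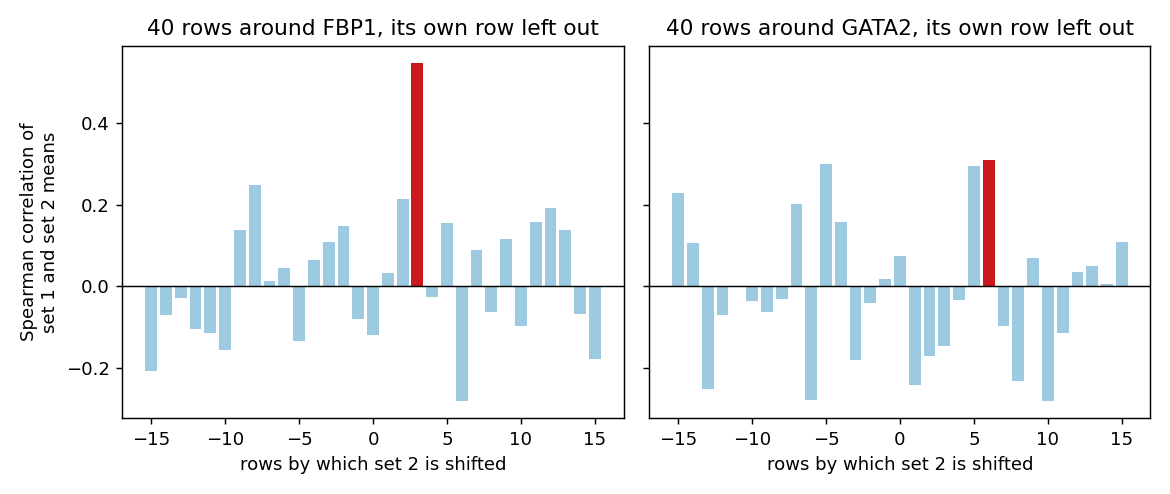
Spearman correlation between the set 1 and set 2 means of the 40 rows around each gene (y axis), its own row left out, when set 2 is shifted by the rows on the x axis. The bar of the chosen offset is red: it stands alone for FBP1 at 3 rows (0.547) and is matched by other bars for GATA2 at 6 rows (0.308, against 0.298 at −5).

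The evidence for the offset differed between the genes. Over the 40 rows around FBP1 the Spearman correlation of the set means was 0.547 at 3 rows and 0.248 at the next best offset. Around GATA2 it was 0.308 at 6 rows, 0.298 at −5 and 0.294 at 5, so these 40 rows alone do not single out its row. The rows named SCFD2 and SLC26A11 remained the most probable ones in the 4 other settings of the model that were tried. A value placed outside the drifting order would be missed by this reading.

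Some measures need no row names. In set 1, 1 gene lay below −3 in all 3 clones, which was FBP1, and in set 2 0 rows did. The row of set 2 that was lowest by its highest clone had −2.59, against −6.08 for FBP1 in set 1. The lowest value anywhere in the mir-141 knockout of set 2 was −3.35. Single values of set 2 went as low as −8.25 without mir-200c and −7.25 without both microRNAs. No row of set 2, whatever its name, thus combined 3 ratios as low as those of FBP1 in set 1. Within 20 rows of FBP1 the lowest values of set 2 were −1.27, −0.73 and −0.88 for the mir-141, mir-200c and double knockouts. Within 20 rows of GATA2 they were −1.02, −4.10 and −1.91.

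At the offset rows, limma gave −0.14 ± 0.17 (SE; adjusted p = 0.800) for FBP1 and −1.27 ± 1.87 (SE; adjusted p = 0.837) for GATA2 in set 2, and called 0 of 5431 genes with 429 at an unadjusted p under 0.05. Over both sets, with the values that chose the genes included, the estimates as listed for FBP1 were −2.96, −3.46 and −4.24, each ± 1.76 (SE), for the mir-141, mir-200c and double knockouts. For GATA2 they were −1.20, −1.87 and −1.46, each ± 0.91 (SE). Without the wild-type library of set 1 these 6 estimates lay between −0.59 and 0.68. The limma fits called 0 genes for each genotype, with 248, 499 and 581 at an unadjusted p under 0.05. These fits joined the sets by row name, and on those rows the ratios of the sets were unrelated. Where a row holds different genes in the sets, its estimate, SE and call mix them. Nothing on the genotypes is thus read from the fits as listed. At the offset rows GATA2 had −1.24, −4.10 and −1.58, each ± 0.88 (SE), and FBP1 had −3.19, −3.52 and −4.30, each ± 1.79 (SE). There the fits called 0, 1 and 1 of 5431 genes, or 0.0184% where 1 was called, and neither was a member. Leaving out 1 library gave up to 6, 1 and 8 calls there, again without a member.

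Other low genes of set 1 can be set beside the members. Of the 17 others below −1 in all 3 clones, 5 had an offset probability of 0.9 or more. At their offset rows 4 of these 5 were below 0 in all 3 clones of set 2, as were 33.5% of all such rows, and 2 were below −0.5, as were 1.09%. TNFRSF18, a receptor of the tumour necrosis factor family, had −1.18, −1.65 and −0.80 there. APOD had −0.34, −2.12 and −3.83. SCIN, which was not below 0 in all 3 clones, had 2.34, −2.25 and −1.92 (mir-141, mir-200c and double knockout). At its offset row FBP1 was below 0 in all 3 clones of set 2 by at most 0.30, and GATA2 at its own was not.

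Of 128 genes on 12 lists around both members, 88 were measured and 4 lay above 1 or below −1 in at least 1 clone of set 1. Of all 9245 genes 4.27% did, so the lists as a whole were near the background. Above 1 were 1, 1 and 2 of the 88, where 0.584%, 1.7% and 1.53% of all genes were, and below −1 were 0, 1 and 1, where 0.562%, 1.06% and 0.746% were. Among the enzymes that glycolysis and gluconeogenesis share, 0 of 11 lay beyond 1, with medians of −0.02, −0.02 and −0.08 for the mir-141, mir-200c and double knockouts against −0.01, −0.02 and −0.03 over all genes. The enzymes of the one-way glycolytic steps (6 of 9 measured) had medians of −0.09, −0.14 and −0.17. Phosphofructokinase, which FBP1 opposes, had ratios of −0.10, −0.07 and −0.13 for PFKL and 0.26, 0.25 and 0.36 for PFKP. Its form PFKM had −0.12, −0.07 and 0.0068. None of the 3 measured genes of the other one-way gluconeogenic steps (6 on the list) lay beyond 1. PCK2, the mitochondrial enzyme that makes phosphoenolpyruvate, had −0.22, −0.19 and −0.19. PC, pyruvate carboxylase, had −0.14, −0.74 and −0.12, and G6PC3, a glucose phosphatase, had 0.26, −0.20 and −0.24.

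PFKFB3, which makes the fructose bisphosphate isomer that inhibits FBP1, had 0.35, 0.57 and 0.61. Of the glucose and lactate transporters, 2 of 6 were measured, with medians of −0.11, −0.45 and −0.22. SLC2A1, a glucose carrier, had 0.14, −0.19 and −0.03, and SLC16A3, a lactate exporter, had −0.37, −0.71 and −0.42. The 7 measured enzymes of the pentose phosphate branch had medians of −0.08, −0.05 and −0.18, with 0 beyond 1. Of 10 measured targets of hypoxia-inducible factors, whose activity FBP1 is known to restrain, 1 lay beyond 1 in at least 1 clone, against that 4.27%. It was ADM, a vasodilator peptide, at −0.26, 0.86 and 1.09. The medians of that list were −0.09, −0.14 and −0.01. Of regulators known for FBP1 from other work, 9 of 16 were measured and 0 lay beyond 1, with medians of −0.04, −0.09 and 0.0044. The repressors ZEB1, ZEB2, SNAI2 and TWIST1 were on the list but not measured, so nothing is known here of their levels. The measured regulators had mixed directions. SNAI1 had −0.18, −0.85 and −0.15, and the DNA methyltransferase DNMT1 had −0.20, −0.44 and −0.26. The related DNMT3A had 0.33, 0.45 and 0.17, and the forkhead factor FOXO1 had 0.10, 0.62 and 0.69.

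**Figure D4:**
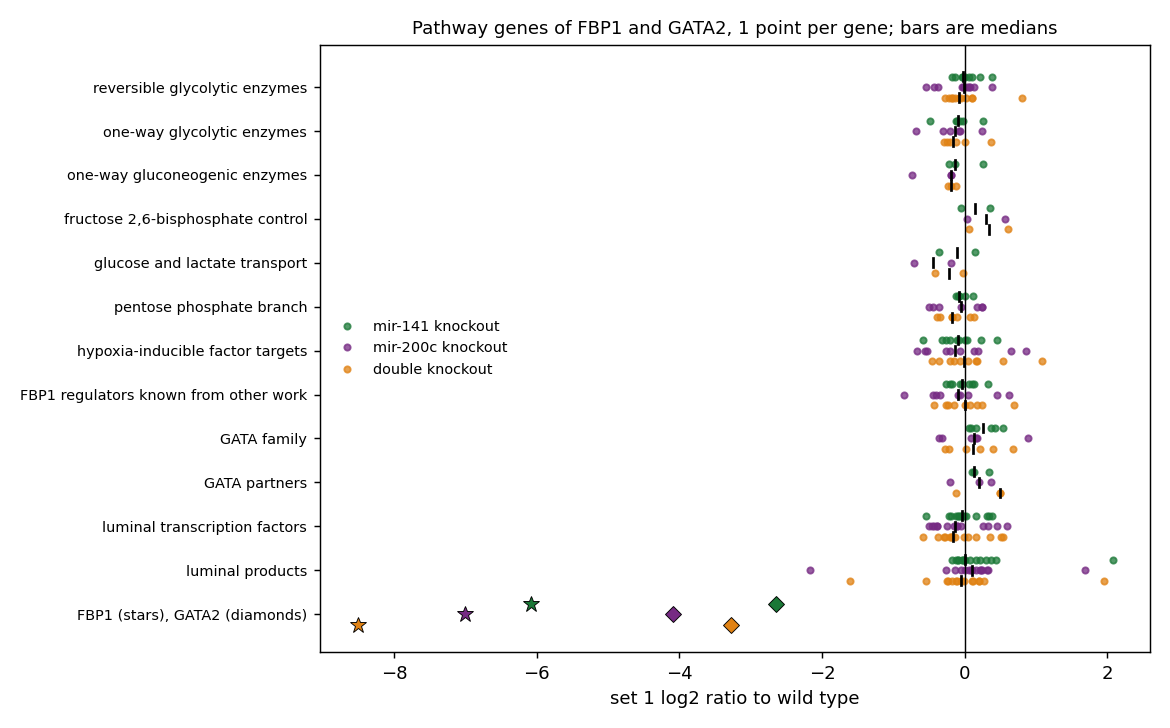
Log2 ratio to wild type in set 1 (x axis) of the measured genes of 12 lists around FBP1 and GATA2 (rows), 1 point per gene and clone, with the median as a black bar. Of 88 genes 4 lie beyond 1 in any clone, while FBP1 (stars) and GATA2 (diamonds) lie between −2.64 and −8.51.

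Among the other GATA factors, GATA3, the luminal factor, had 0.54, 0.16 and 0.40 for the mir-141, mir-200c and double knockouts of set 1, and GATA6 had 0.36, 0.89 and 0.67. The 6 measured genes of the GATA family list had medians of 0.26, 0.12 and 0.11. Of them 0 lay beyond 1 in any clone, where 4.27% of all genes did in at least 1. Of the partners 3 of 10 were measured. LMO4, a LIM-domain adaptor, had 0.34, 0.19 and 0.49, RUNX1 had 0.14, 0.37 and 0.50, and LDB1, which binds LIM-domain proteins, had 0.10, −0.21 and −0.12.

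Luminal transcription factors gave 0 of 14 measured genes beyond 1, with medians of −0.04, −0.13 and −0.16. FOXA1, which opens chromatin for the oestrogen receptor, had −0.09, −0.39 and −0.28, and the secretory factor XBP1 had −0.12, −0.45 and −0.59. Of 15 measured luminal products 3 lay beyond 1 in at least 1 clone, where 4.27% of all genes did. TFF1, a secreted trefoil peptide, had −0.18, −2.17 and −0.55. SCGB2A2, mammaglobin, had −0.10, 0.33 and −1.62. PIP, a protein of apocrine secretion, had 2.07, 1.69 and 1.95.

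Identity markers of the line moved little in set 1: the 6 of SK-BR-3 (ERBB2, GRB7, STARD3, KRT8, KRT18 and EPCAM) had medians of −0.06, 0.02 and −0.10. Their levels, and whether other markers were at 0, cannot be read from ratios. Of the basal breast markers 3 of 6 were measured, and KRT17 had 0.94, 2.20 and 2.07, KRT14 0.52, 1.00 and 0.95 and EGFR −0.05, 0.05 and 0.15. For the counts that follow, 4.27% of all genes lay above 1 or below −1 in at least 1 clone of set 1. So few markers were measured that nothing is read from these counts. Fibroblast markers (3 of 10 measured) had medians of −0.11, 0.69 and −0.09, and 2 lay beyond 1 in at least 1 clone. They were the collagens COL5A1 at −0.29, 1.29 and −0.09 and COL5A2 at 0.91, 0.69 and 1.28. Endothelial markers (2 of 7) had 0.03, 0.13 and 0.74, and 1 lay beyond 1, the cadherin CDH5 at 0.10, 0.73 and 1.34. Blood markers (3 of 8) had −0.01, −0.48 and −0.44, and 1 lay beyond 1, the actin bundler LCP1 at −0.13, 1.05 and −0.44. Of the mast cell markers 0 of 5 were on the table. The part of any of these in the ratios of FBP1 and GATA2 was not tested.

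Neighbours on the chromosome are given as values. Of the 10 nearest measured genes on each side of FBP1, spanning 5.21 Mb, 0 of 20 were below −1 in any clone of set 1, and their medians were −0.13, −0.01 and −0.09. The closest were HIATL1 at −0.19, −0.42 and −0.21 and FANCC, a DNA repair gene, at −0.14, −0.14 and −0.09. The lowest was C9orf129, at −0.96 in the mir-200c knockout. Around GATA2, over 2.74 Mb, 0 of 20 were below −1, with medians of 0.01, −0.08 and −0.08. EEFSEC, a selenocysteine elongation factor, had −0.02, −0.23 and −0.26, and RPN1, a subunit of the oligosaccharyl transferase, had 0.05, −0.08 and −0.07. With 0.562%, 1.06% and 0.746% of all genes below −1 for the mir-141, mir-200c and double knockouts, 0 of 20 is near the background for either member. DNA copy number was not measured.

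**Figure D5:**
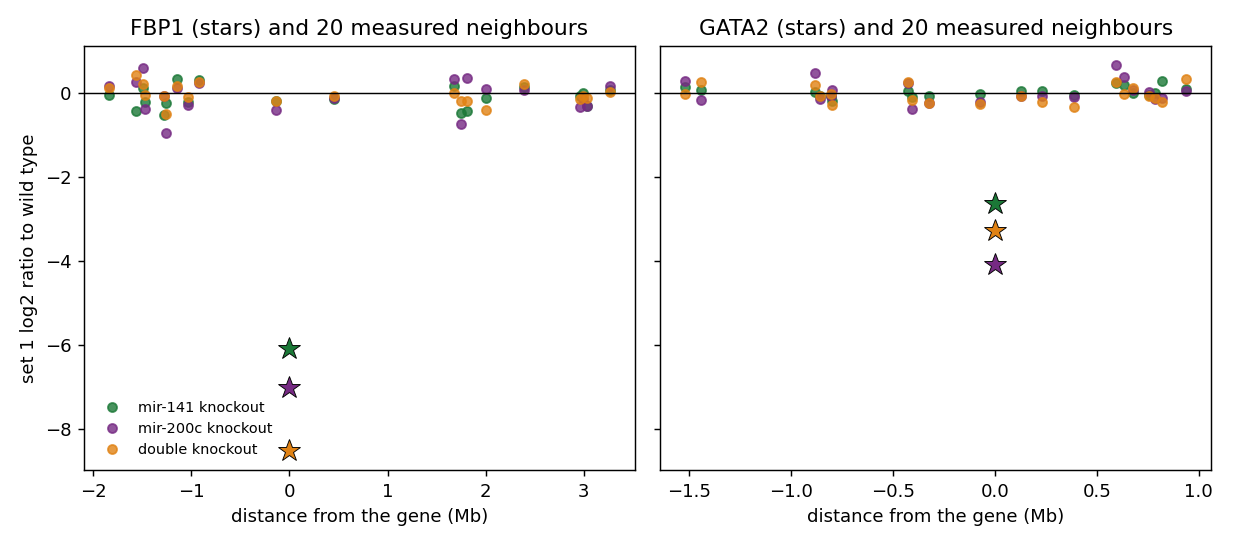
Log2 ratio to wild type in set 1 (y axis) against distance from the gene in Mb (x axis) for FBP1 and GATA2 (stars) and the 10 nearest measured genes on each side (circles), coloured by clone. No neighbour lies below −1, while the stars lie between −2.64 and −8.51.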

How the data were processed

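For 8 libraries of SK-BR-3 cells, messenger RNA was selected with oligo(dT) beads, fragmented and sequenced on an Illumina HiSeq, per the labels' protocols. TopHat2 and the build GRCh37.p10 were used, per the submitters' processing notes; versions, counting, scaling and filters are not stated. The deposited table holds log2 ratios made by the authors, each clone against its set's wild type, in 6 columns of 9245 entries (9241 symbols). Columns of samples outside the series numbered 0. Ratios hold no depth, so no interval could be given. Nothing says how the sets relate beyond their number, so p-values measure the spread between these libraries.

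Each wild type was set to 0. limma 3.58.1 in R 4.3.3 was fitted to all entries: the 3 clones of set 2 against their wild type (2 residual degrees of freedom), and 4 groups over both sets with the set as a block (3 residual degrees of freedom), because every ratio was taken within a named set. Calls needed a Benjamini-Hochberg adjusted p under 0.05. The fits assumed expression values and were kept for ratios. They were tested on simulated data, as was the offset estimate.

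The row offset was found after seeing the data. Other row orders, including alphabetical and hash orders, were tried first and did not relate the sets. The model allowed offsets up to 60 rows, changing at 1 row in 40. Set 2 as listed remains the planned reading, and the offset reading is given beside it.

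Coordinates and UTRs are from GENCODE 29 (GRCh38), where 9223 entries had a gene; promoters and microRNAs are from RefSeq (GRCh38.p14), where both members matched. No coordinate comes from the authors' build. Named genes were the members, pathway list genes beyond 1 in a clone of set 1 and otherwise some of each list, markers beyond 1, the nearest neighbours, and the 5 genes most like each member. APOD and SCIN were also named after their values were seen. The members and lists were chosen with earlier results of these data known. Alternatives were median centring, another reference, robust variance, no block and leaving out each library.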

Additional observations from a re-analysis of the deposited data

Results flagged for a closer look

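FBP1 and GATA2 were below wild type in all 3 clones of set 1 and above it in all 3 clones of set 2 as listed. The set 1 mean minus the set 2 mean was −7.30 for FBP1 (−7.20 and 0.10) and −3.66 for GATA2 (−3.34 and 0.32). The difference was not tested, and the genes were chosen on the set 1 values. At the offset rows FBP1 was slightly below 0 in all 3 clones of set 2. GATA2 was below 0 there in the mir-200c knockout, and stayed above 0 in the mir-141 knockout (0.17) and the double knockout (0.12).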

How the results depend on the processing

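Ratios of the members in set 1 stayed on their side of 0 under median centring. Against the mean of the 3 clones, which leaves only differences among clones, FBP1 had 1.12, 0.19 and −1.31 and GATA2 0.70, −0.76 and 0.061 for the mir-141, mir-200c and double knockouts, by construction. In set 2 the limma fit called 0 genes under every setting run, with 484 to 1046 at an unadjusted p under 0.05 as listed and up to 619 at the offset rows. At the offset rows its estimate changed sign, to −0.14 for FBP1 and −1.27 for GATA2. Single values of set 2 that changed sign there were −0.30, −0.033 and −0.084 for FBP1 and −4.10 for GATA2 in the mir-200c knockout. Leaving out 1 clone of set 2 at the offset rows gave −0.059, −0.19 and −0.17 for FBP1 and −1.99, 0.15 and −1.97 for GATA2 (clone of mir-141, mir-200c or both left out).

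Without the replicate block, taking the 6 ratios as independent values, 0, 0 and 0 genes were called for the mir-141, mir-200c and double knockouts, with 272, 551 and 615 at an unadjusted p under 0.05, and the estimates of the members did not move. Their SE rose from 1.76 to 2.61 for FBP1 and from 0.91 to 1.32 for GATA2.

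Over both sets as listed, leaving out 1 library gave 0 to 1, 0 to 1 and 0 to 2 calls for the mir-141, mir-200c and double knockouts. Without the wild type of set 2 the calls were WDR20 for each genotype and FAM86B2 for the double knockout. For the mir-200c knockout, SLC26A11, the name on the offset row of GATA2, was called at −4.08 without its set 1 clone, and HIST1H2BH without its set 2 clone. Without the wild type of set 1 the estimates of the members lost their size or changed sign. FBP1 ranged from −6.61 to 0.68, −7.11 to 0.19 and −7.89 to −0.59 over the libraries left out, and GATA2 from −3.03 to 0.63, −3.70 to −0.04 and −3.28 to 0.37. In each range one end is without the wild type of set 2 and the other without that of set 1. These fits and those without the block joined the sets by row name, where the sets were unrelated. Nothing on the genotypes is read from their calls.

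At the offset rows 0, 1 (MFSD7) and 1 (SNRPN) genes were called. Leaving out 1 library there gave 0 to 6, 0 to 1 and 0 to 8 calls, the most without the set 1 clone of the genotype for the mir-141 and double knockouts (and 4 for the double knockout without either mir-141 clone), and no member was among them. FBP1 then ranged from −6.72 to 0.34, −7.05 to 0.0088 and −7.83 to −0.77, again between the wild types left out. GATA2 ranged from −2.27 to −0.20, −5.14 to −3.06 and −2.81 to −0.35. The lower end of these ranges is without the wild type of set 2, the mir-200c clone of set 1 and the double knockout clone of set 2, and the upper end without the wild type of set 1, the mir-200c clone of set 2 and the double knockout clone of set 1. The cause of these changes was not tested. The number of libraries limits every test here.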
